A study of Mus musculus with 7 samples.

Results

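Cortical layer and projection neuron identity genes are genes whose transcripts mark excitatory neurons of a given depth or class in the cerebral cortex. The 38 genes described here were taken by symbol from the 25467 genes of a count table of mouse medial prefrontal cortex (mPFC), the frontal areas along the midline of the brain. They fall into 12 upper layer genes, 9 layer 5 genes, 6 layer 6 genes, 3 subplate genes and 8 genes shared more broadly among projection neurons. All 38 are protein coding and were listed in the table, and all passed the low-count filter that left 17211 genes to test. RNA sequencing libraries came from 7 different mice, 4 labelled as treated with recombinant human thrombospondin-1 (rhTSP1, called TSP1 below) and 3 labelled PBS, phosphate-buffered saline. Thrombospondin-1 is a secreted matrix glycoprotein that astrocytes release. The sources used here do not give dose, route, time, strain, sex or age of the mice, nor whether any shared a litter, a cage or a day of dissection. The labels name the tissue as brain, with mPFC in the titles.

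The cerebral cortex is built of layers of excitatory neurons that differ in where they send their axons. Upper layer neurons project mostly within the cortex, layer 5 holds the neurons that reach the brainstem and spinal cord, layer 6 sends axons to the thalamus, and the subplate is a thin band just above the white matter. Each class keeps a set of transcription factors and other genes active, so a piece of cortex that reaches deeper or lies more superficially carries another mix of their transcripts. In bulk RNA, fewer cells of a type and less RNA per cell cannot be told apart.

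Sequences just upstream of 4 of the genes described below are shown here. No link between a sequence and the level of its gene was tested. Parm1 had the smallest p of the 38, Rasgrf2 stands for the upper layer genes, and Syt6 and Cplx3 for the layer 6 and subplate genes that were highest together in 1 library. They were picked with these values known. Each sequence is from RefSeq on GRCm38.p6, read 5′ to 3′ on the strand of the gene, ends before the first annotated exon base, and has matches to any of 8 searched motifs in capitals.
Rasgrf2, chr13:92131829-92132078, minus strand: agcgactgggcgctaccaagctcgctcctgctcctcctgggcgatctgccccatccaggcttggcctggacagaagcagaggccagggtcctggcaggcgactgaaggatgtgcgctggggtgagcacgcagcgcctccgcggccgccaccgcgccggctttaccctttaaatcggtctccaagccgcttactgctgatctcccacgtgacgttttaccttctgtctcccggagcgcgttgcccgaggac
Parm1, chr5:91517450-91517614, plus strand: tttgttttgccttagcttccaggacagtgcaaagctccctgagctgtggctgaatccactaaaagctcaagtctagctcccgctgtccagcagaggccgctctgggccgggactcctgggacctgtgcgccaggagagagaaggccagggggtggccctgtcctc
Syt6, chr3:103574995-103575230, plus strand: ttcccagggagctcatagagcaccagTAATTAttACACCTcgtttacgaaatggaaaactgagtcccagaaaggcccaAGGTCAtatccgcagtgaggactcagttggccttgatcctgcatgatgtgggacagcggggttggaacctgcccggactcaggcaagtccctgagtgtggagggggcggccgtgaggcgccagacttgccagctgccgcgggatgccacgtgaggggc
Cplx3, chr9:57606282-57606531, minus strand: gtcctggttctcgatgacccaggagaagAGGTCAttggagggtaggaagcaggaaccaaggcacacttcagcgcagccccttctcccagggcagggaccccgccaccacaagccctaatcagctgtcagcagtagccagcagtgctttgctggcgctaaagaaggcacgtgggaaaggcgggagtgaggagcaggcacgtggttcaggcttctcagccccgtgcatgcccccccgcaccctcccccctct

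The motifs were searched on both strands in RefSeq windows, each taken here as the 250 bases before a start. Of the 38 genes, 29 had at least 1 such window, with 44 windows in all. Counting from the 5′ end of the printed sequence, Syt6 holds a LIM homeodomain site (TAATTA) at base 27, a T-box core (AGGTGT, here on the other strand as ACACCT) at base 35 and a ROR nuclear receptor site (AGGTCA) at base 79. Cplx3 holds the same ROR site at base 29, and the printed stretches of Rasgrf2 and Parm1 hold none of the 8. These short strings are common. The ROR site was in 13.6% of the genes' windows and in 14.0% of all 32817 windows, and the T-box core in 11.4% and 11.8%. TAATTA was in 9.09% of the genes' windows, those of Foxp1, Mef2c, Syt6 and Tbr1, against 4.85% of all. The E-box of NeuroD factors (CAGATG) was in 9.09% against 14.5%, and the ETS site (CCGGAA) in 4.55% against 12.0%. A Cux site (ATCGAT) was found at Cux2 alone among the 38 (2.27% of windows against 0.728%), a forkhead site (TGTTTAC) at Cux1 alone (2.27% against 3.16%), and the POU octamer (ATGCAAAT) in none against 1.6% of all. The windows of the 38 genes had a median GC content of 61.0%, against 52.4% for all windows. TAATTA and ATCGAT read the same on both strands, and AGGTGT and AGGTCA share their first 4 letters. A match is a string of letters, not a measured binding site.

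Between 15090336 and 20755167 counts per library were assigned to genes. Values are given as CPM, the counts of a gene relative to the library total after scaling of the libraries to each other by the trimmed mean of M-values (TMM). The tissue carried the markers of cortical excitatory neurons, with the vesicular glutamate transporter gene Slc17a7 at 1302 to 1608 CPM. Of 8 hindbrain and spinal cord genes, 2 were listed in the table and their summed level did not exceed 0.734 CPM. TSP1 replicate 4 stood apart in genes of neighbouring tissue. There, 17 of 18 striatal projection neuron genes and 15 of 15 myelin genes had their highest value, with summed levels of 962 CPM (striatal, 471 to 514 in the other 6 libraries) and 9038 CPM (myelin, 3310 to 6259 in the others). The highest of the striatal genes, the adenylyl cyclase gene Adcy5, had 289 CPM in that library and 205 to 242 in the others, and the myelin basic protein gene Mbp had 3785 against 1370 to 2494. The 8 olfactory bulb genes summed to 87.3, 68.9 and 71.4 CPM in TSP1 replicates 2, 3 and 4 and to 46.1 in PBS replicate 1, against 21.1 to 25.6 in the remaining 3 libraries. Results that rest on TSP1 replicate 4 are therefore given with and without it.

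In the upper layer, layer 6 and subplate groups, TSP1 and PBS means differed by less than the spread between libraries. In the layer 5 and broad projection neuron groups, every TSP1 library lay above every PBS library by a narrow margin. TSP1 and PBS libraries overlapped in these groups under other scaling or without some genes. The level of a group in a library is the mean over its genes of log2 CPM relative to each gene's mean over the 7 libraries. Upper layer levels were 0.04, 0.16, 0.02 and -0.28 in TSP1 replicates 1 to 4 and -0.22, 0.20 and 0.09 in PBS replicates 1 to 3. Layer 6 levels were 0.03, -0.25, -0.19 and 0.43 with TSP1 and 0.06, 0.05 and -0.13 with PBS. Subplate levels were -0.19, -0.27, -0.29 and 0.57 with TSP1 and 0.09, 0.06 and 0.03 with PBS. TSP1 replicate 4 thus had the lowest upper layer level and the highest layer 6 and subplate levels of the 7 libraries, and PBS replicate 1 had the second lowest upper layer level. Layer 5 levels were 0.13, -0.004, -0.051 and 0.15 with TSP1 and -0.12, -0.054 and -0.056 with PBS. The groups did not overlap, by -0.051 against -0.054 at the closest, and the means differed by 0.13 (pooled SD 0.08). Without the layer 5 genes that striatal neurons also express (Bcl11b, Crym and Pcp4), the levels were 0.25, -0.057, -0.053 and 0.10 with TSP1 and -0.27, 0.068 and -0.033 with PBS, and the groups overlapped. PBS replicate 2 had moved up from -0.054, TSP1 replicate 1 up from 0.13 and PBS replicate 1 down from -0.12. The groups also overlapped with scaling to pan-neuronal genes, with -0.074 in TSP1 replicate 2 and -0.038 in PBS replicate 1. Levels of the broad projection neuron group were 0.03, 0.03, 0.01 and 0.07 with TSP1 and -0.10, -0.04 and 0.00 with PBS, a difference of means of 0.08 (pooled SD 0.04). Here too the groups overlapped with pan-neuronal scaling (-0.04 in TSP1 replicate 2, -0.007 in PBS replicate 3) and without Foxp1, which striatal neurons share (-0.004 in TSP1 replicate 1, 0.007 in PBS replicate 3), or Mef2c, which interneurons share (-0.011 in TSP1 replicate 3, 0.009 in PBS replicate 3). Neither difference was tested, and an overlap of single libraries does not by itself show that a difference of means shrank. TSP1 replicates 1 to 3 lay below all 3 PBS libraries in subplate genes and overlapped with them in upper layer genes.

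**Figure D1:**
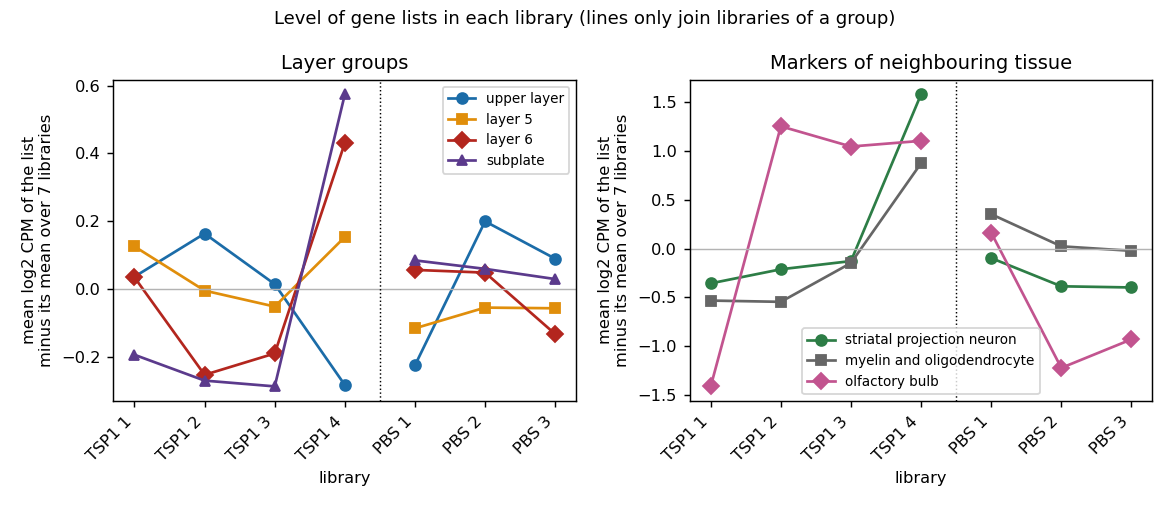
Level of the 4 layer groups (left) and of striatal, myelin and olfactory bulb genes (right) in each of the 7 libraries (horizontal axis), as mean log2 CPM relative to the mean over libraries (vertical axis), with lines that only join points of a group. In TSP1 replicate 4 the upper layer level is -0.28, the layer 6 level 0.43 and the subplate level 0.57, beside a striatal level of 1.58 and a myelin level of 0.87.

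As a measure of the depth of the dissected tissue, the mean level of layer 5 and layer 6 genes was subtracted from the upper layer level. This difference was -0.05, 0.27, 0.12 and -0.55 in TSP1 replicates 1 to 4 and -0.18, 0.21 and 0.18 in PBS replicates 1 to 3. TSP1 libraries averaged -0.05 ± 0.35 (SD, n = 4) and PBS libraries 0.07 ± 0.21 (SD, n = 3), so the groups differed by less than the spread between libraries. The ratio of Cux2, an upper layer gene, to Foxp2, a layer 6 gene, gave the same order at its lower end, with 4.02 in TSP1 replicate 4 and 8.32 in PBS replicate 1, and 12.1 to 17.2 in the other libraries. Cux2 to Tbr1 ranged from 0.521 in TSP1 replicate 4 and 0.728 in PBS replicate 1 to 1.07 in TSP1 replicate 2. Myelin genes were also highest in the libraries at this lower end, with levels of 0.87 in TSP1 replicate 4 and 0.35 in PBS replicate 1, against -0.55 to 0.02 in the other 5. Striatal neurons also express Foxp2 and, of the layer 5 genes, Bcl11b, Crym and Pcp4. The striatal level was highest in TSP1 replicate 4. The part of striatal transcripts in these measures was not tested, nor was the part of dissection depth in the group differences.

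**Figure D2:**
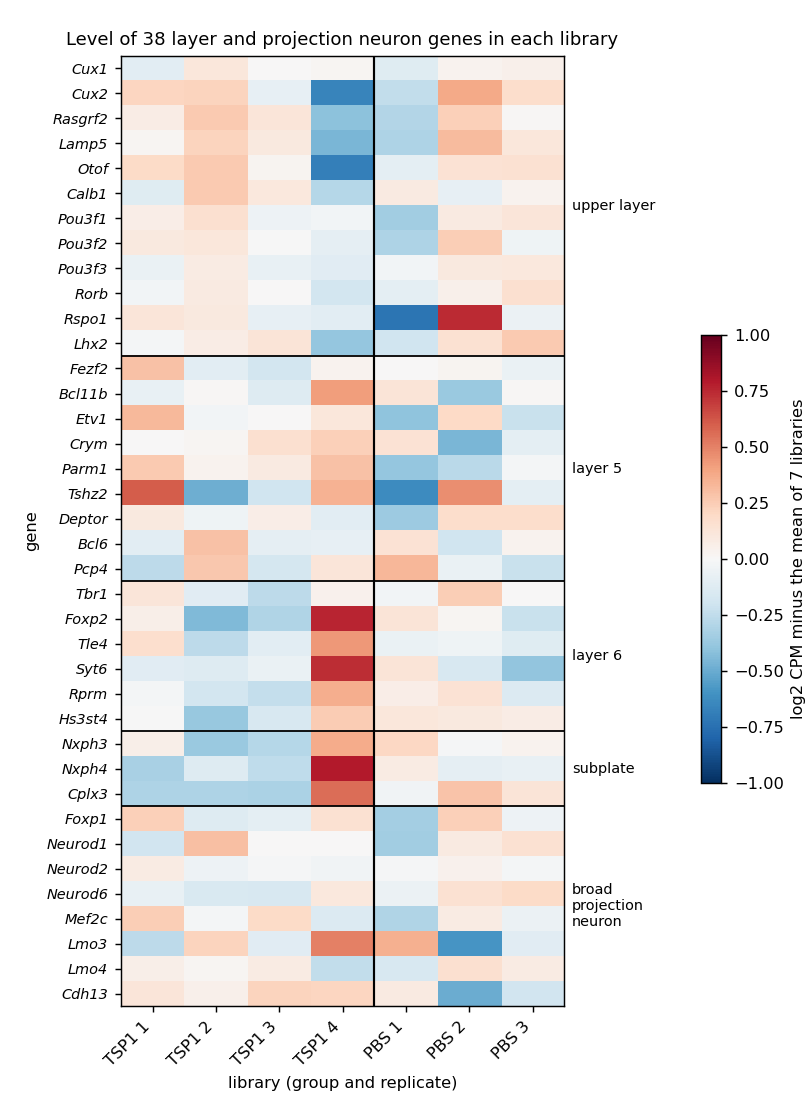
Each of the 38 genes (rows, by layer group) in each of the 7 libraries (columns), coloured by log2 CPM relative to the gene's mean over the libraries. TSP1 replicate 4 holds the lowest value of 8 of 12 upper layer genes and the highest value of every layer 6 and subplate gene except Tbr1, which is highest in PBS replicate 2.

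Once p-values were adjusted over the whole table, 0 of the 38 genes passed in the main test. Among the alternatives, DESeq2 alone called 1 of them, Parm1 (DESeq2 adjusted p = 0.0452). The quasi-likelihood test of edgeR put 0 of the 38 and 0 of all 17211 genes (0.0%) under a Benjamini-Hochberg false discovery rate (FDR) of 0.05. Limma-voom also called 0 genes, DESeq2 88 of the 14591 to which it gave an adjusted p (0.603%) and edgeR's exact test 107 of 17211 (0.622%). At an unadjusted p under 0.05 there were 2 of the 38 (5.26%), both higher with TSP1, against 9.65% of all genes tested, namely 4.21% higher and 5.44% lower. Parm1 was the 1 gene whose groups did not overlap, against 10.1% of all genes and 4.83% with TSP1 above PBS. Fitted log2 fold changes (TSP1 over PBS) were above 0 in 20 of the 38, against 51.1% of all genes. The median standard error (SE) of a log2 fold change was 0.14 in the 38 and 0.11 over all genes tested. The 38 varied more between libraries than most genes: the median range over the 7 libraries was 0.65 log2 units, against 0.45 for all genes tested, and 32 of the 38 exceeded the latter.

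**Figure D3:**
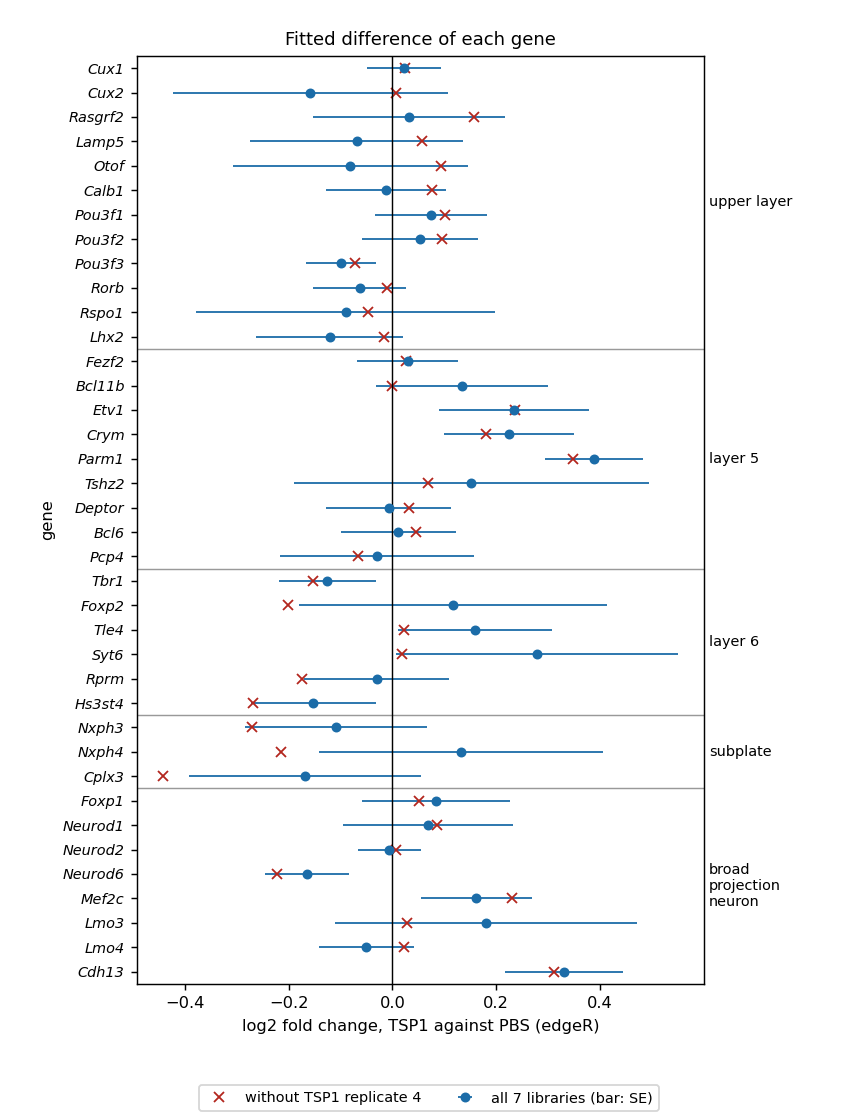
Fitted log2 fold change (TSP1 over PBS, horizontal axis) of the 38 genes by group in edgeR, as points with bars of 1 SE from all 7 libraries and as crosses without TSP1 replicate 4. Parm1 (0.39) and Cdh13 (0.33) lie farthest above 0, Foxp2 moves from 0.12 to -0.20 and Nxph4 from 0.13 to -0.22 without TSP1 replicate 4, and Cux2 from -0.16 to 0.01.

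Among the 12 upper layer genes, 0 had an unadjusted p under 0.05 and 4 had fitted values above 0, with a median log2 fold change of -0.07 that was 0.04 without TSP1 replicate 4. Cux2, a cut homeodomain transcription factor of upper layer neurons (chromosome 5, 121856366 to 122050102, GRCm38), had 146, 146, 118 and 79.3 CPM in TSP1 replicates 1 to 4 and 105, 163 and 142 in PBS replicates 1 to 3. The groups overlapped, with the lowest value in TSP1 replicate 4 and the highest in PBS replicate 2. Its log2 fold change was -0.16 (SE 0.27, edgeR adjusted p = 0.903) with all libraries and 0.01 without TSP1 replicate 4. Rasgrf2, a Ras exchange factor gene whose upstream sequence held none of the searched motifs, had 178, 202, 183 and 127 CPM with TSP1 and 138, 199 and 170 with PBS (log2 fold change 0.03, SE 0.18). It was low in the same pair of libraries as Cux2. Lamp5, a membrane protein gene that interneurons also express, had 145, 166, 152 and 104 CPM with TSP1 and 115, 177 and 154 with PBS (log2 fold change -0.07). Otof, which encodes the calcium sensor otoferlin, had 44.2 to 52.0 CPM in TSP1 replicates 1 to 3 and 26.9 in TSP1 replicate 4, with 40.6, 48.0 and 48.2 with PBS.

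Each of the 12 upper layer genes had its lowest value in TSP1 replicate 4 (8 genes) or in PBS replicate 1 (4 genes). Of all genes tested, 30.3% were lowest in either of the pair, and 15.3% in TSP1 replicate 4. The 3 POU domain transcription factor genes had ranges of 0.22 to 0.55 log2 units over the 7 libraries, against 1.04 for Cux2. Pou3f3 (chromosome 1, 42695768 to 42703176), which had the smallest p of the group, had 141, 157, 141 and 137 CPM with TSP1 and 145, 158 and 159 with PBS (edgeR log2 fold change -0.10, SE 0.07, adjusted p = 0.681). The groups overlapped through TSP1 replicate 2. Pou3f1 and Pou3f2 had log2 fold changes of 0.08 and 0.05, and both were lowest in PBS replicate 1. Rspo1, which encodes a secreted enhancer of Wnt signalling (chromosome 4, 124986430 to 125009099), had the widest range of the 12, with 6.4, 6.3, 5.54 and 5.45 CPM with TSP1 and 3.49, 9.93 and 5.62 with PBS. All TSP1 libraries lay inside the PBS range, and the log2 fold change of -0.09 (SE 0.29) was 0.40 without PBS replicate 2. The remaining 4 genes, the transcription factor genes Cux1, Rorb and Lhx2 and the calbindin gene Calb1, had log2 fold changes of -0.12 to 0.02.

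The 9 layer 5 genes had 7 fitted values above 0 (77.8%, against 51.1% of all genes) and a median log2 fold change of 0.13, which was 0.048 without TSP1 replicate 1 and 0.045 without TSP1 replicate 4. Parm1, a mucin-like membrane glycoprotein gene (chromosome 5, 91517615 to 91626894), had 56.2, 48.0, 49.8 and 57.5 CPM in TSP1 replicates 1 to 4 and 35.9, 39.0 and 46.3 in PBS replicates 1 to 3. Every TSP1 library lay above every PBS library, by 48.0 against 46.3 CPM at the closest. The means were 52.9 ± 4.69 CPM (SD, n = 4) and 40.4 ± 5.34 (SD, n = 3). The log2 fold change was 0.39 (SE 0.09, unadjusted p = 0.00104) and failed the adjustment in edgeR (adjusted p = 0.21). DESeq2 gave it an adjusted p = 0.0452, and over the alternatives tried its adjusted p ranged from 0.0452 to 0.52. Its log2 fold change lay between 0.31 and 0.50 whichever library was left out. Its 2 highest libraries were TSP1 replicate 1, with striatal and myelin levels of -0.36 and -0.53, and TSP1 replicate 4, with 1.58 and 0.87. The part of neighbouring tissue in the Parm1 difference was not tested.

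Fezf2, the zinc finger transcription factor that specifies neurons projecting below the cortex (chromosome 14, 12342094 to 12348189), had 64.8, 49.2, 46.7 and 54.3 CPM with TSP1 and 53.1, 54.0 and 50.6 with PBS. The PBS libraries lay inside the TSP1 range, and TSP1 replicate 1 was the highest. Its log2 fold change was 0.03 (SE 0.10, edgeR adjusted p = 0.952), 2 SE either side spanning -0.17 to 0.22, and -0.07 without TSP1 replicate 1. Bcl11b, a zinc finger factor that acts after Fezf2 in these neurons and that striatal neurons also express, had 81.3, 86.3, 78.5 and 115 CPM with TSP1 and 93.6, 66.3 and 86.6 with PBS. Its highest value was in the library with the most striatal transcripts, TSP1 replicate 4. The log2 fold change of Bcl11b was 0.13 with all libraries and -0.001 without that one. Etv1, an ETS factor gene, had a log2 fold change of 0.23 (SE 0.14, unadjusted p = 0.141 in edgeR). Crym, which encodes a thyroid hormone binding protein, had 0.22 (SE 0.13, unadjusted p = 0.105 in edgeR). In Etv1 PBS replicates 1 and 3 were the lowest, and in Crym PBS replicate 2 was.

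Tshz2, a teashirt zinc finger gene (chromosome 2, 169633013 to 170071816), had the widest range of the layer 5 genes, with 13.2, 6.13, 7.52 and 11.1 CPM with TSP1 and 5.54, 12.0 and 8.07 with PBS. The groups overlapped, and the log2 fold change of 0.15 (SE 0.34) turned to -0.04 without TSP1 replicate 1 and -0.09 without PBS replicate 1. Of its annotated exon bases 65.2% are shared with an antisense noncoding gene, and the strand of the counting is not given, so reads of the pair cannot be told apart. The same holds in smaller part for 9 more of the 38 genes, of which Pcp4, a calmodulin binding peptide gene, shares 23.7% of its exon bases with Igsf5 on the same strand. Deptor, an inhibitor of mTOR, the repressor gene Bcl6 and Pcp4 had log2 fold changes of -0.01, 0.01 and -0.03. Bcl6 had 37.99 CPM in TSP1 replicate 2 and 28.9 to 29.4 in the 3 other TSP1 libraries.

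The 6 layer 6 genes had 3 fitted values above 0 and 0 with an unadjusted p under 0.05, with a median log2 fold change of 0.04 that was -0.16 without TSP1 replicate 4. Tbr1, the T-box transcription factor of corticothalamic neurons (chromosome 2, 61802930 to 61814114), had 161, 137, 124 and 152 CPM with TSP1 and 145, 175 and 149 with PBS. The groups overlapped, and its log2 fold change was -0.13 (SE 0.09, edgeR adjusted p = 0.716). Foxp2, a forkhead factor gene that striatal neurons also express (chromosome 6, 14901349 to 15441977), had 12.1, 8.5, 9.38 and 19.7 CPM with TSP1 and 12.7, 11.7 and 9.9 with PBS. The log2 fold change of Foxp2 was 0.12 (SE 0.30) and turned to -0.20 without TSP1 replicate 4. The synaptotagmin gene Syt6, with TAATTA, the T-box core and AGGTCA upstream, had 29.6, 29.2, 30.5 and 53.3 CPM with TSP1 and 35.0, 28.6 and 24.3 with PBS. The 3 other TSP1 libraries lay inside the PBS range. Tle4, a Groucho family corepressor gene, had 59.9, 44.5, 49.6 and 72.0 CPM with TSP1 and 50.8, 51.7 and 49.0 with PBS. Without TSP1 replicate 4 the log2 fold change went from 0.28 to 0.02 for Syt6 and from 0.16 to 0.02 for Tle4. Rprm, which encodes an inhibitor of the cell cycle, and Hs3st4, a heparan sulfate sulfotransferase gene, had log2 fold changes of -0.03 and -0.15.

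All 3 subplate genes and 5 of 6 layer 6 genes had their highest value in TSP1 replicate 4, against 18.5% of all genes tested. The median log2 fold change of the subplate genes was -0.11 with all libraries and -0.27 without TSP1 replicate 4. Cplx3, which encodes a complexin of synaptic vesicle release and has AGGTCA upstream (chromosome 9, 57599992 to 57606281), had 9.43, 9.47, 9.38 and 17.3 CPM with TSP1 and 11.5, 14.3 and 12.8 with PBS. TSP1 replicates 1 to 3 lay below all PBS libraries and TSP1 replicate 4 above them. The log2 fold change was -0.17 (SE 0.22, edgeR adjusted p = 0.861) with all libraries and -0.44 without TSP1 replicate 4 (unadjusted p = 0.00282, edgeR adjusted p = 0.259), and its adjusted p ranged from 0.121 to 0.966 over the alternatives. Nxph4, a neurexophilin gene of low level (chromosome 10, 127525473 to 127534559; 34 to 92 counts per library), had 2.24, 2.58, 2.36 and 5.01 CPM with TSP1 and 3.01, 2.66 and 2.69 with PBS. For Nxph4 the log2 fold change was 0.13 (SE 0.27) and turned to -0.22 without TSP1 replicate 4. Nxph3, another neurexophilin gene, had 43.2, 32.1, 34.1 and 53.6 CPM with TSP1 and 47.9, 41.1 and 42.6 with PBS (log2 fold change -0.11, SE 0.18).

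Without TSP1 replicate 4, more of the 38 genes had a small p. At an unadjusted p under 0.05 there were 7 (18.4%), against 9.74% of all 16980 genes then tested, and 0 passed the adjustment in edgeR. The higher ones were Parm1, Cdh13 and Mef2c (7.89% against 4.33% of all), and the lower ones Hs3st4, Nxph3, Cplx3 and Neurod6 (10.5% against 5.41%). Hs3st4 and Nxph3 had log2 fold changes of -0.27 and -0.27, with unadjusted p of 0.0075 and 0.0237 in edgeR, and Neurod6 had -0.22 (0.0104). Groups did not overlap in 5 of the 38 (13.2%), against 15.4% of all genes. Without PBS replicate 1, the other library low in upper layer genes, groups did not overlap in 9 (23.7%, against 19.3% of all genes). The sign of the fitted value turned when some single library was left out for 24 of the 38.

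**Figure D4:**
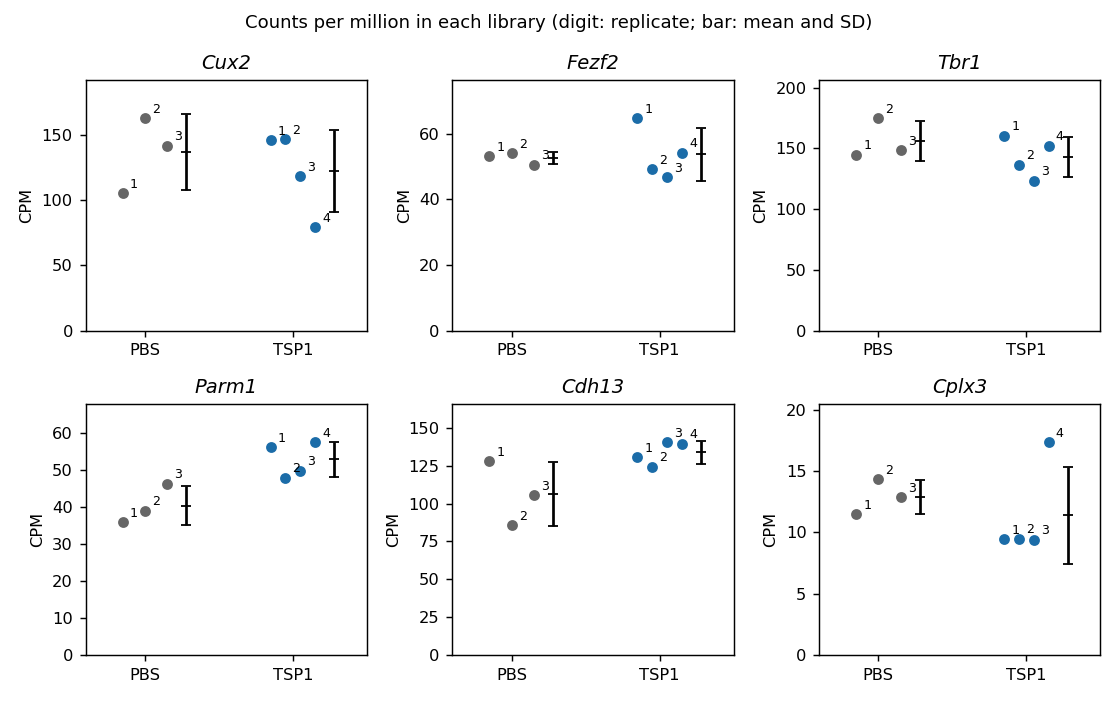
CPM (vertical axis, from 0) of Cux2, Fezf2, Tbr1, Parm1, Cdh13 and Cplx3 in each library (points, with the replicate number) by group, beside the mean and SD of the 3 PBS and 4 TSP1 libraries. The groups do not overlap in Parm1 (48.0 CPM or more against 46.3 or less), while in TSP1 replicate 4 Cux2 has its lowest value (79.3) and Cplx3 its highest (17.3).

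The 8 genes shared broadly among projection neurons had 5 fitted values above 0 and a median log2 fold change of 0.08, which was -0.03 without PBS replicate 1 and 0.12 without PBS replicate 3. Cdh13, which encodes T-cadherin, an adhesion protein anchored to the membrane by a lipid (chromosome 8, 118283733 to 119324921), had 131, 124, 140 and 140 CPM with TSP1 and 128, 85.6 and 106 with PBS. The groups overlapped by PBS replicate 1, which lay above TSP1 replicate 2. The means were 134 ± 7.61 (SD, n = 4) and 106 ± 21.2 CPM (SD, n = 3). Its log2 fold change in edgeR was 0.33 (SE 0.11, unadjusted p = 0.015, adjusted p = 0.401). It was 0.20 without PBS replicate 2 and 0.49 without PBS replicate 1, and the unadjusted p stayed under 0.05 in each fit that left out 1 library, but not with pan-neuronal scaling (0.0818) or the length and GC correction (0.0567). Lmo3, a LIM-only transcriptional regulator gene (chromosome 6, 138362918 to 138581968), had the widest range of the 8, with 63.4, 88.8, 70.6 and 108 CPM with TSP1 and 97.3, 50.7 and 70.5 with PBS. Its log2 fold change of 0.18 (SE 0.29) was -0.02 without PBS replicate 2. The transcription factor gene Mef2c had 706, 589, 680 and 541 CPM with TSP1 and 484, 632 and 571 with PBS (log2 fold change 0.16, SE 0.11).

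Among the NeuroD family of helix-loop-helix factors, which keep cortical excitatory neurons differentiated, Neurod2 varied least of the 38 genes, with 88.5 to 96.9 CPM over the 7 libraries and a log2 fold change of -0.01 (SE 0.06). Neurod6 had 72.4, 68.8, 68.3 and 82.1 CPM with TSP1 and 73.1, 84.8 and 87.3 with PBS (edgeR log2 fold change -0.16, SE 0.08, adjusted p = 0.547). The groups overlapped through TSP1 replicate 4 and PBS replicate 1. Neurod1 had 5.78 to 9.15 CPM (log2 fold change 0.07). The forkhead factor gene Foxp1 and the LIM-only gene Lmo4 had log2 fold changes of 0.08 and -0.05. Among the 38, the level per exon length (CPM per kilobase of exon, RPKM) was highest for Lmo4 at 80.2, followed by Lamp5 at 49.4, Mef2c at 38.2 and Neurod6 at 35.7. It was lowest for Foxp2 at 0.734, Tshz2 at 1.17 and Nxph4 at 1.75.

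Further genes of the same layers, taken from 3 separate lists, also gave 0 genes past the adjustment in edgeR. Of all genes tested, 51.1% had fitted values above 0. Of 16 other upper layer genes, 10 were above 0 (62.5%) and 0 had an unadjusted p under 0.05 (median log2 fold change 0.06). Of 17 other layer 6 and subplate genes, 13 were above 0 (76.5%) and 0 had an unadjusted p under 0.05 (median 0.05). In TSP1 replicate 4, 11 of the 17 were highest, against 18.5% of all genes tested. Among them was Ppp1r1b, also one of the striatal genes, with 127.5 CPM there and 45.65 to 61.92 in the other libraries. Of 16 other layer 5 genes, 14 were above 0 (87.5%, median 0.09) and 4 had an unadjusted p under 0.05 (25%, against 9.65% of all genes), 3 higher and 1 lower. Thsd7a, a gene with thrombospondin type repeats, had 23.3, 28.8, 23.6 and 28.8 CPM with TSP1 and 18.1, 18.9 and 21.6 with PBS, with no overlap between groups (edgeR log2 fold change 0.43, SE 0.10, unadjusted p = 0.00105, adjusted p = 0.21). Cacna1h, a T-type calcium channel gene, had 141, 135, 117 and 122 against 111, 101 and 118 CPM (edgeR log2 fold change 0.23, SE 0.08, adjusted p = 0.373). Vat1l had 46.1, 40.5, 46.8 and 42.3 against 37.99, 39.3 and 40.3 CPM (edgeR log2 fold change 0.16, SE 0.07, adjusted p = 0.493). The pseudokinase gene Trib2 was the lower one, with 37.0, 37.7, 40.6 and 36.3 against 37.9, 49.6 and 45.5 CPM (edgeR log2 fold change -0.23, SE 0.09, adjusted p = 0.444). Groups overlapped in Cacna1h and Trib2 and not in Vat1l. The level of these other layer 5 genes was 0.08, 0.02, 0.03 and 0.02 in TSP1 replicates 1 to 4 and -0.14, -0.05 and 0.04 in PBS replicates 1 to 3, so the groups overlapped through PBS replicate 3.

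Genes of other cell types and regions also differed between the libraries. All 30 pan-neuronal genes together ranged from 23760 CPM in TSP1 replicate 4 to 26760 in TSP1 replicate 2, and their level was -0.04 and -0.09 in TSP1 replicate 4 and PBS replicate 1, the libraries lowest in upper layer genes, against 0.01 to 0.06 elsewhere. With scaling to the pan-neuronal genes, 16 of the 38 had fitted values above 0 instead of 20, and the genes at an unadjusted p under 0.05 were Parm1 (higher) and Pou3f3 and Neurod6 (lower). All 15 striatal genes tested had fitted values above 0 with TSP1 (median log2 fold change 0.55), and their level was -0.36, -0.21 and -0.13 in TSP1 replicates 1 to 3, against -0.10, -0.39 and -0.40 with PBS. Without Foxp2, the layer 6 level was 0.37 in TSP1 replicate 4 and -0.22 to 0.06 in the other libraries. The part of striatal transcripts was not tested, neither in the layer 5 and layer 6 levels nor in Bcl11b, Foxp1 and Foxp2 as single genes. The 8 olfactory bulb genes had levels of -1.41, 1.25, 1.04 and 1.10 in TSP1 replicates 1 to 4 and 0.16, -1.22 and -0.93 in PBS replicates 1 to 3. At an unadjusted p under 0.05, genes lower with TSP1 numbered 10 of 16 in microglia (62.5%) and 5 of 16 in astrocytes (31.2%). They numbered 5 of 14 in endothelium (35.7%) and 3 of 12 in oligodendrocyte precursors (25%). Of all genes tested, 5.44% were lower at such a p. In these 4 lists 0 genes were higher. Of 16 interneuron genes 1 was higher and 4 were lower (31.2% together), and of 7 thalamic genes 1 was higher (14.3%). Of 8 hippocampal and 5 septal genes 0 had such a p, against 9.65% of all genes. The part of these cell types in the results for the layer genes was not tested.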

How the data were processed

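RNA sequencing of 7 mouse mPFC samples gave the deposited table of unnormalized counts. Its whole numbers and unequal column totals (15090336 to 20755167) show this unit. Per the labels' protocols, libraries were made with a SMARTer mRNA kit from 1.3 µg of total RNA. Builds in the submitters' processing notes are GRCm38 and mm10 (aligner, counter, gene models and strand setting not given in the sources used here). Table columns carry the first number of the sample descriptions, 1 to 4 for TSP1 and 8, 11 and 12 for PBS. Treatment and any effect of this order cannot be told apart. Symbols, positions and exon lengths came from GENCODE M21, which held 25375 of the 25467 identifiers.

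The test was edgeR 4.0.16 (R 4.3.3) with its filterByExpr filter, TMM scaling and a robust two-sided quasi-likelihood test. Group was the only term, all 7 libraries entered, and the Benjamini-Hochberg FDR threshold was 0.05 over 17211 genes. The SE was derived from the log2 fold change and its F statistic. Group levels use log2 CPM with a prior count of 2. P-values set the difference against the spread between mice (biological coefficient of variation 9.80%). Replicates differed by more than sampling noise (chi-square per degree of freedom 4.26 to 14.7), so each counted as 1. Same-numbered TSP1 and PBS libraries did not deviate together (r = -0.26, -0.03 and 0.01). On simulated counts for this comparison (17143 genes), 76 of 99 changes of 1.5-fold and 93 of 98 of 2-fold were recovered, with 4 false calls. The median SE was 0.14 in the layer and projection neuron genes described here, against 0.11 over all genes tested. No recovery rate was obtained for the layer and projection neuron genes alone, so the simulated rates may be too high for them. The simulation gave every gene the same coefficient of variation (9.80%) and held no library that stood apart. Its rates may therefore be too high for other genes as well.

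Alternatives were RLE size factors, scaling to pan-neuronal genes, DESeq2 1.42.0, edgeR's exact test, limma 3.58.1 voom, no low-count filter, 5 CPM in 3 libraries, a length and GC correction, a replicate block and leaving out each library. For group levels they were prior counts of 0.5 and 5, pan-neuronal scaling, and leaving out genes that striatal neurons (Bcl11b, Foxp1, Foxp2, Pcp4, Calb1, Rasgrf2 and Crym) or interneurons (Lamp5, Calb1, Cplx3 and Mef2c) also express. Those of the broad group, and DESeq2 and the exact test without TSP1 replicate 4, were added after the data were seen. DESeq2 gave 10876 genes no adjusted p. The 38 genes and all lists were chosen with earlier results of these data known. Named with values are Cux2, Fezf2 and Tbr1, every gene of the 38 at an unadjusted p under 0.05, the gene of smallest p and of widest range in each group, and genes of the other layer lists at an unadjusted p under 0.05. Further genes were named after their values were seen. Promoter windows are from RefSeq (GRCm38.p6).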

Additional observations from a re-analysis of the deposited data

Results flagged for a closer look

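Among 59 sets of 4 TSP1 values (38 genes and 21 gene lists), 8 had a library far from the other 3, by a gap that took more of the whole range than Dixon's 95% critical value for 4, where chance gives about 1 in 20. In 5 of them the library was TSP1 replicate 4, at the high end. For the subplate gene Cplx3 its gap took 0.989 of the range (17.3 CPM against 9.38 to 9.47), for the layer 6 gene Syt6 0.947 (53.3 against 29.2 to 30.5) and for the subplate gene Nxph4 0.877 (5.01 against 2.24 to 2.58). The subplate level had a gap of 0.892 and the striatal level one of 0.882. These 5 share a library and are not independent of each other.

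The other 3 concern other libraries. Bcl6 was highest in TSP1 replicate 2, with a gap of 0.948 (37.99 CPM against 28.9 to 29.4). The level of the other layer 5 genes was highest in TSP1 replicate 1, with a gap of 0.89, and the olfactory bulb level was lowest there, with a gap of 0.922 (-1.41 against 1.04 to 1.25).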

How the results depend on the processing

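Of all genes tested, 0 passed with the quasi-likelihood test, while 10 passed with pan-neuronal scaling, 19 with no low-count filter, 88 in DESeq2 and 107 in the exact test. Of the 38 genes, DESeq2 called 1 (Parm1). Genes of the 38 at an unadjusted p under 0.05 were 2 higher and 0 lower. They were 1 higher and 2 lower with pan-neuronal scaling (9.83% of all genes at such a p), 1 higher with the length and GC correction (8.57%), and 2 higher and 1 lower with no filter (8.18%). Fezf2 turned to -0.009 with pan-neuronal scaling, where the median of all genes was -0.04, and Rspo1 to 0.068 in voom. Without the genes that striatal neurons also express, layer 5 levels moved from 0.126 to 0.246 in TSP1 replicate 1, from -0.115 to -0.273 in PBS replicate 1 and from -0.054 to 0.068 in PBS replicate 2, and the broad level from -0.04 to -0.079 in PBS replicate 2. With pan-neuronal scaling the broad level moved from 0.03 to -0.04 in TSP1 replicate 2 and from -0.099 to -0.021 in PBS replicate 1. The other levels, also with prior counts of 0.5 and 5 or without genes that interneurons share, moved by less than the spread between libraries.

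The replicate block uses the shared replicate number, which the labels do not tie to a litter, day or batch, and gives TSP1 replicate 4 no weight. With the block 0 genes passed, 2 of the 38 were higher and 4 lower at an unadjusted p under 0.05 (7.94% of all genes), the layer 5 median was 0.041, and Cux2, Rspo1, Foxp2 and Nxph4 turned to 0.016, 0.030, -0.201 and -0.217.

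Leaving out 1 library at a time, the genes past the FDR threshold ranged from 0 to 9. Those of the 38 at an unadjusted p under 0.05 ranged from 2 to 4 higher and 0 to 4 lower (all genes at such a p, 6.71% to 10.6%). Those of the 38 without overlap ranged from 1 to 9 (2.63% to 23.7%, against 14.5% to 19.3% of all genes). The layer 5 median ranged from 0.045 to 0.195 and the broad projection neuron median from -0.034 to 0.119. The upper layer median ranged from -0.136 to 0.041, the layer 6 median from -0.163 to 0.147 and the subplate median from -0.27 to -0.005. Ranges of single genes crossed 0 for 24 of the 38. Among these were -0.316 to 0.007 for Cux2, -0.397 to 0.396 for Rspo1, -0.069 to 0.091 for Fezf2, -0.093 to 0.486 for Tshz2, -0.201 to 0.268 for Foxp2, -0.215 to 0.249 for Nxph4 and -0.016 to 0.450 for Lmo3. Without TSP1 replicate 4, a setting added after the data were seen for DESeq2 and the exact test, these called 68 and 116 genes. Both had 4 lower genes of the 38 at an unadjusted p under 0.05, where 4.95% of all genes had such a p in DESeq2 and 9.26% in the exact test. Groups did not overlap in 5 of the 38, against 15.4% of all genes. The layer 5 median was 0.045 in both, with Cux2 at 0.005 and 0.006, Foxp2 at -0.199 and -0.200 and Nxph4 at -0.216 in both. The causes were not tested. With 4 against 3 mice and a median SE of 0.14 log2 units in the 38 genes, small differences were not detectable.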
